A study of Mus musculus with 12 samples.

Results

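The genes described here are 34 enzymes and regulators that build cholesterol and fatty acids. They were taken as a named list, found by mouse symbol among the 54838 genes of the count tables, and all 34 were found and passed the filter on low counts. By role, 9 lead from acetyl units through mevalonate to squalene, 10 turn squalene into cholesterol, 6 control the pathway through the SREBP transcription factors or carry sterol, and 9 make, elongate or desaturate fatty acids. RNA came from spinal cord of mice at postnatal day 60 (P60), from control mice (Olig1+/+;Tet1fl/fl, labelled wildtype) and from Tet1 mutants (Olig1cre/+;Tet1fl/fl), either unlesioned or 4 days after a lysolecithin lesion (4dpl). Each of the 4 groups has 3 libraries. Both genotypes carry the floxed Tet1 allele, Cre comes from the Olig1 locus and so acts in cells that have expressed Olig1, and both sexes entered the study. The unlesioned tissue was taken from the side opposite the lesion, so it is not tissue of uninjured animals. Cells were enriched for oligodendroglia on a Percoll density gradient.

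Cholesterol is a main lipid of myelin, and because little crosses the blood-brain barrier, cells of the spinal cord make their own. Acetyl units are joined and reduced to mevalonate, which is turned into isoprene units, squalene and then, over many sterol intermediates, cholesterol. The same cytosolic acetyl units feed fatty acid synthesis, whose products are lengthened by ELOVL elongases and given double bonds by SCD and FADS desaturases. When membranes hold little sterol, SCAP escorts the SREBP proteins out of the endoplasmic reticulum and they are cleaved to active transcription factors. INSIG proteins hold SCAP back when sterol is plentiful.

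SREBP proteins bind sterol regulatory elements, often beside the CCAAT box of the factor NF-Y, so the promoters were searched for these letters. RefSeq promoter windows on GRCm38.p6, reaching from 250 bases before to 50 after the start of transcription, were at hand for 27 of the 34 genes. Both strands were searched for TCACNCCAC (a sterol regulatory element), TCACGTGA (an E-box form that SREBP proteins can also bind) and CCAAT (the NF-Y box, ATTGG on the other strand), and a gene counted if any of its windows held the letters. CCAAT stood in the windows of 22 of the 27 genes (81.5%) and in those of 41.1% of the 27025 genes of the table. TCACNCCAC stood in 1 of the 27, Hmgcs1, and in 1.44% of all genes, and TCACGTGA in 0 of the 27 and 1.12% of all genes. The 5 genes without CCAAT in a window were Acaca, Acat2, Elovl6, Fads2 and Scap. The windows of 4 genes are shown as the 200 bases up to the start of transcription, 5′ to 3′ on the gene's strand, with the matches in capitals. Hmgcs1 is shown because it holds the sterol element, and Insig2, Ebp and Sc5d because they are regulators or enzymes whose levels rose after lesion, as given further on. The stretch of Hmgcs1 is chr13:119690151-119690350, plus strand, that of Insig2 (the most upstream of 3 windows) chr1:121332590-121332789, minus strand, that of Ebp chrX:8193513-8193712, minus strand, and that of Sc5d chr9:42264301-42264500, minus strand.
Hmgcs1: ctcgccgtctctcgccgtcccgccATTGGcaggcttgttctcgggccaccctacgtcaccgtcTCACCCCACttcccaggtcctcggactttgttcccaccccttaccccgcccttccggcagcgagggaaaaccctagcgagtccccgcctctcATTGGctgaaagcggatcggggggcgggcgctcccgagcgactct
Insig2: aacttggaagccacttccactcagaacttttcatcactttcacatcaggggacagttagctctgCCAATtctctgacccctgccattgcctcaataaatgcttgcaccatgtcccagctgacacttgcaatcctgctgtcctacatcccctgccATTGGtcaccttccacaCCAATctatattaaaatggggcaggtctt
Ebp: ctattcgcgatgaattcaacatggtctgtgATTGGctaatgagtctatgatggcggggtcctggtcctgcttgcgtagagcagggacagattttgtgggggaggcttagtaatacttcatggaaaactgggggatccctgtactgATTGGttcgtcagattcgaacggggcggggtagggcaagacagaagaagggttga
Sc5d: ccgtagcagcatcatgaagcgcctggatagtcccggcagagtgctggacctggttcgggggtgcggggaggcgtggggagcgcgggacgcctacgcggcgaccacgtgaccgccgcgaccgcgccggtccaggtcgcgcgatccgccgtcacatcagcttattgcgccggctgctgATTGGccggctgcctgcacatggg
In Hmgcs1 the sterol element begins 137 bases before the start, between CCAAT boxes read on the opposite strand. The matches in Ebp and Sc5d are all on the opposite strand, and Insig2 holds the box on both. The other 2 windows of Insig2, which begin at start sites further downstream, held 0 matches. A match of letters is a description and was not tested as a binding site.

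Levels are given as CPM, counts per 1000000 counts of a library after TMM normalization of library sizes, and as log2 CPM. Total counts per library lay between 34805086 and 67251544, so the spread between libraries rather than counting error set the precision. Tet1, the floxed gene, did not separate the genotypes at the gene level. It stood at 15, 14.9 and 18.3 CPM in the control unlesioned libraries and 16.4, 9.94 and 12.1 CPM in those labelled Tet1 mutant, and at 12.5, 11.7 and 12 and 13.4, 10.9 and 21.5 CPM at 4dpl. Cre removes 1 exon, and a gene-level count takes in the remaining exons and cells without Cre, so it does not check the deletion, and Tet1 mutant is the group's label throughout. The preparations held RNA of other cells beside oligodendroglia, since 10 microglia markers summed to 3263 to 10257 CPM unlesioned and to 9837 to 16704 CPM at 4dpl, against 14989.6 to 29852 and 24588 to 72074 CPM for 12 mature oligodendrocyte markers. No marker of either list was at 0 in any library. The 8 markers listed for infiltrating macrophages summed to 6941 to 19880 CPM unlesioned and to 11431 to 26599 CPM at 4dpl. These were thus also high in unlesioned tissue, and infiltrating is the label of the list only. In such bulk samples, more cells of a type and more RNA of a gene per cell cannot be told apart. The study's methods speak of biological replicates for each condition, but no source used here ties a library to an animal, and unlesioned and lesioned tissue may share mice. The tests treat all libraries as independent.

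Single libraries stood apart in these genes, and this bears on every comparison. Of the 12 libraries, Tet1 mutant 4dpl replicate 3 held the highest CPM of 31 of the 34 genes. Against the mean of the other 2 libraries of its group, its median log2 difference was 0.78 over the 34 genes, 1.33 over the 12 mature oligodendrocyte markers, -0.04 over the 10 microglia markers and -0.04 over all 31109 genes tested. The summed oligodendrocyte markers were at 26909.7, 30297 and 72074 CPM in that group. Olig1, the locus with the cre allele, was at 192, 233 and 623 CPM there. Replicate 1 was the highest of its group for 32 of the 34 genes in the control unlesioned libraries and for 29 in the Tet1 mutant unlesioned libraries. Its median log2 difference over the 34 genes was 0.66 in the control and 0.59 in the Tet1 mutant. Over the oligodendrocyte markers that difference was 0.15 in the control and 1.12 in the Tet1 mutant. In control unlesioned replicate 1 the lipid genes thus stood high while the oligodendrocyte markers hardly did. The part of the cell makeup in the results below was not tested.

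**Figure D1:**
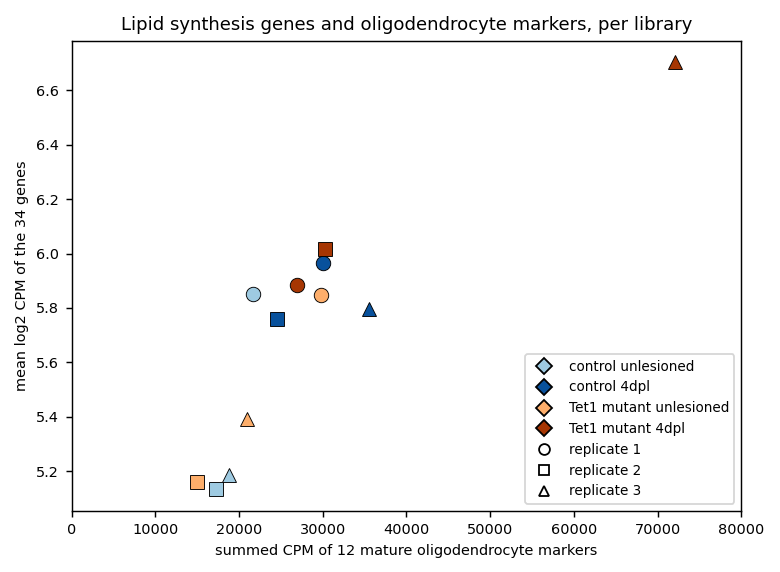
Each point is 1 of the 12 libraries, with the summed CPM of 12 mature oligodendrocyte markers on the x axis and the mean log2 CPM of the 34 lipid synthesis genes on the y axis; colour gives the group and shape the replicate. Tet1 mutant 4dpl replicate 3 lies far to the upper right at 6.70, and 3 unlesioned libraries form the lower left at 5.13, 5.16 and 5.19.

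The mean log2 CPM of the 34 genes was 5.85, 5.13 and 5.19 in the control unlesioned libraries and 5.97, 5.76 and 5.80 in the control 4dpl libraries, or 5.39 ± 0.40 and 5.84 ± 0.11 (SD, n = 3). Tet1 mutant values were 5.85, 5.16 and 5.39 unlesioned and 5.89, 6.02 and 6.70 at 4dpl, or 5.47 ± 0.35 and 6.20 ± 0.44 (SD, n = 3). In the control the unlesioned libraries overlapped those at 4dpl through replicate 1 alone. With TMM, every 4dpl library of the Tet1 mutant lay above every unlesioned one, the nearest pair being 5.85 and 5.89. With RLE size factors these groups overlapped, the highest unlesioned library being at 5.86 and the lowest at 4dpl at 5.83. With library totals alone they also overlapped, at 6.11 and 5.71.

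**Figure D2:**
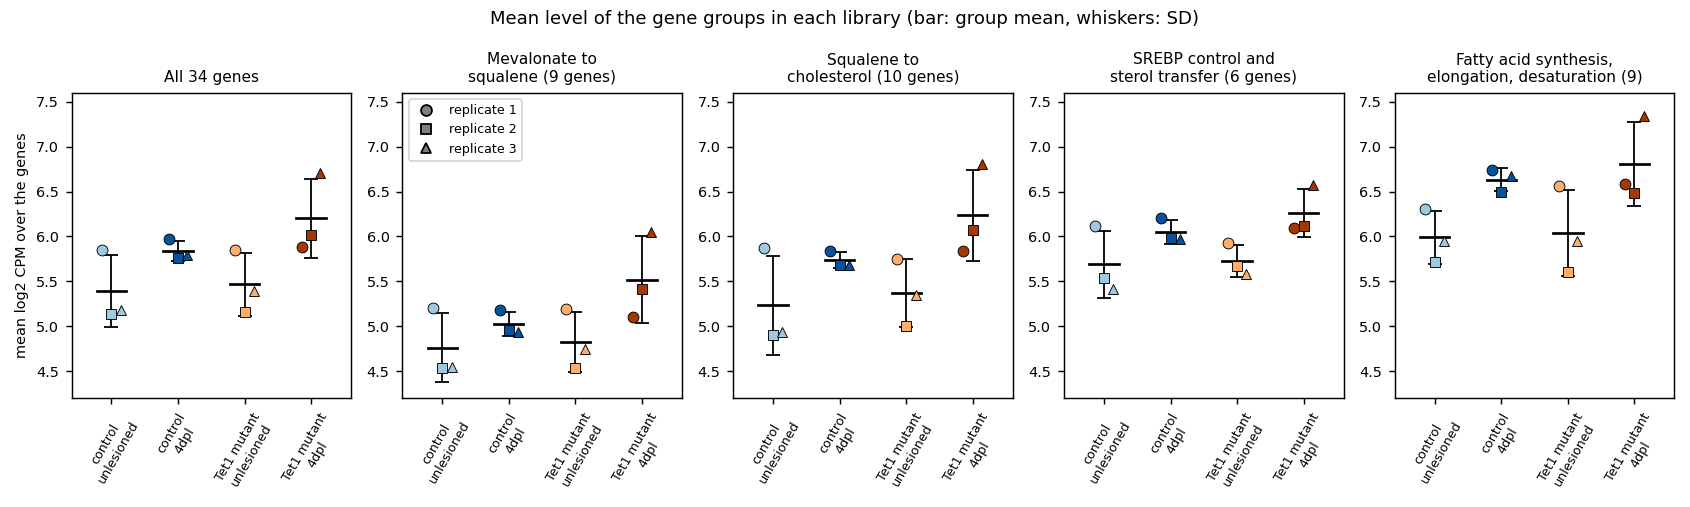
Mean log2 CPM over all 34 genes and over each of the 4 roles on the y axis, for the 4 groups on the x axis; each point is a library, shaped by replicate, with the group mean as a bar and the SD as whiskers. Replicate 1 of both unlesioned groups sits near the 4dpl level in most panels, and Tet1 mutant 4dpl replicate 3 is the highest point of each.

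Per kilobase of exon, Scd2, the main stearoyl-CoA desaturase of brain, was far the most abundant of the 34, at 211 ± 27.2 CPM per kb in the control unlesioned libraries (SD, n = 3). Elovl5, an elongase of polyunsaturated fatty acids, followed at 34.8 ± 10.1 CPM per kb, then Hmgcs1, the cytosolic HMG-CoA synthase, at 31.8 ± 18, Acly, which makes cytosolic acetyl-CoA from citrate, at 29.8 ± 17.6, and Ebp, a sterol isomerase, at 26.1 ± 1.15. These 4 did not differ beyond their SDs. The lowest levels were those of Tm7sf2, a sterol reductase, at 1.37 ± 0.132 CPM per kb, Fdps, farnesyl diphosphate synthase, at 1.62 ± 0.356, and Acaca, acetyl-CoA carboxylase, at 1.69 ± 0.0758. Exons of another gene cover 47.2% of the exon bases of Tm7sf2 and 26.7% of those of Fdps, so their counts are uncertain, as are those of Acat2, Scd1 and Scd2, which have closely similar copies. Across the 12 libraries the ratio of highest to lowest CPM ranged from 1.92 for Srebf1 to 7.75 for Scd2.

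At 4dpl most lipid synthesis genes had a higher fitted level than in unlesioned tissue in both genotypes, but few passed the test within either genotype. A gene was called at p under 0.01 and a Benjamini-Hochberg adjusted p under 0.05 over all 31109 genes, in edgeR's quasi-likelihood test. In the control, 2 of the 34 rose, Fads1 and Insig2, where 5.12% of all genes tested were called higher, and 0 fell. At an unadjusted p under 0.05, 6 were higher, against 13.9% of all genes, and 0 were lower. In the Tet1 mutant, 0 were called, where 0.0225% of all genes were called higher. There, 23 of the 34 were higher and 0 lower at an unadjusted p under 0.05, against 15.9% of all genes higher. DESeq2 called 2 of the 34 higher in that contrast, where it called 4.28% of all genes higher. With edgeR's newer quasi-likelihood option the number was 2, beside 4.42% of all genes, and with voom and sample weights 8, beside 11.2%. The 23 at an unadjusted p under 0.05 were 3 without Tet1 mutant 4dpl replicate 3, 6 without Tet1 mutant unlesioned replicate 2, 10 without Tet1 mutant unlesioned replicate 3 and 15 without control 4dpl replicate 3, which enters there only through the shared spread and scaling.

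Averaged over both genotypes, the lesion contrast called 10 of the 34 higher and 0 lower, where 14.2% of all genes were called higher. At an unadjusted p under 0.05, 24 were higher, against 21.3% of all genes. Scaled by library totals alone, 0 were called and 2 were higher at an unadjusted p under 0.05, beside 2.56% and 5.89% of all genes. With only genes of at least 10 counts in every library tested, 2 were called, beside 10.5% of those genes. Counts with 1 library left out, above and below, come without the share of all genes called in the same fit. They do not show whether the 34 genes moved apart from all genes. Single libraries moved the number of 10. It was 22 without control unlesioned replicate 1, 19 without Tet1 mutant unlesioned replicate 1 and 17 without Tet1 mutant 4dpl replicate 1. The first of these are the highest unlesioned libraries for most of the 34 genes and the last the lowest of its group for 23. It was 5 without control 4dpl replicate 3 and 6 without Tet1 mutant 4dpl replicate 3, control 4dpl replicate 1, or replicate 2 or 3 of either unlesioned group. In the control, the 2 calls became 9 without control unlesioned replicate 1, 0 without control unlesioned replicate 2 or 3 or control 4dpl replicate 1 or 2, and 1 without control 4dpl replicate 3, Tet1 mutant unlesioned replicate 3 or Tet1 mutant 4dpl replicate 1 or 2. In the Tet1 mutant, 8 were called without Tet1 mutant unlesioned replicate 1 and 7 without control unlesioned replicate 1.

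Fold changes are on the log2 scale, 4dpl over unlesioned, with their standard errors. The median over the 34 genes was 0.43 in the control and 0.80 in the Tet1 mutant, beside -0.36 and -0.18 over all genes tested. With library totals alone, without TMM, the median of all genes shifted by a further -0.35 in the control and -0.48 in the Tet1 mutant, and the medians of the 34 genes were 0.14 and 0.31. The number of the 34 with a value above 0 was 30 in the control and 34 in the Tet1 mutant, and 24 and 30 with library totals alone. In the control, 12 of the 34 had every 4dpl library above every unlesioned one, where 16.5% of all genes did, and in the Tet1 mutant 9 did, where 18.8% of all genes did.

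**Figure D3:**
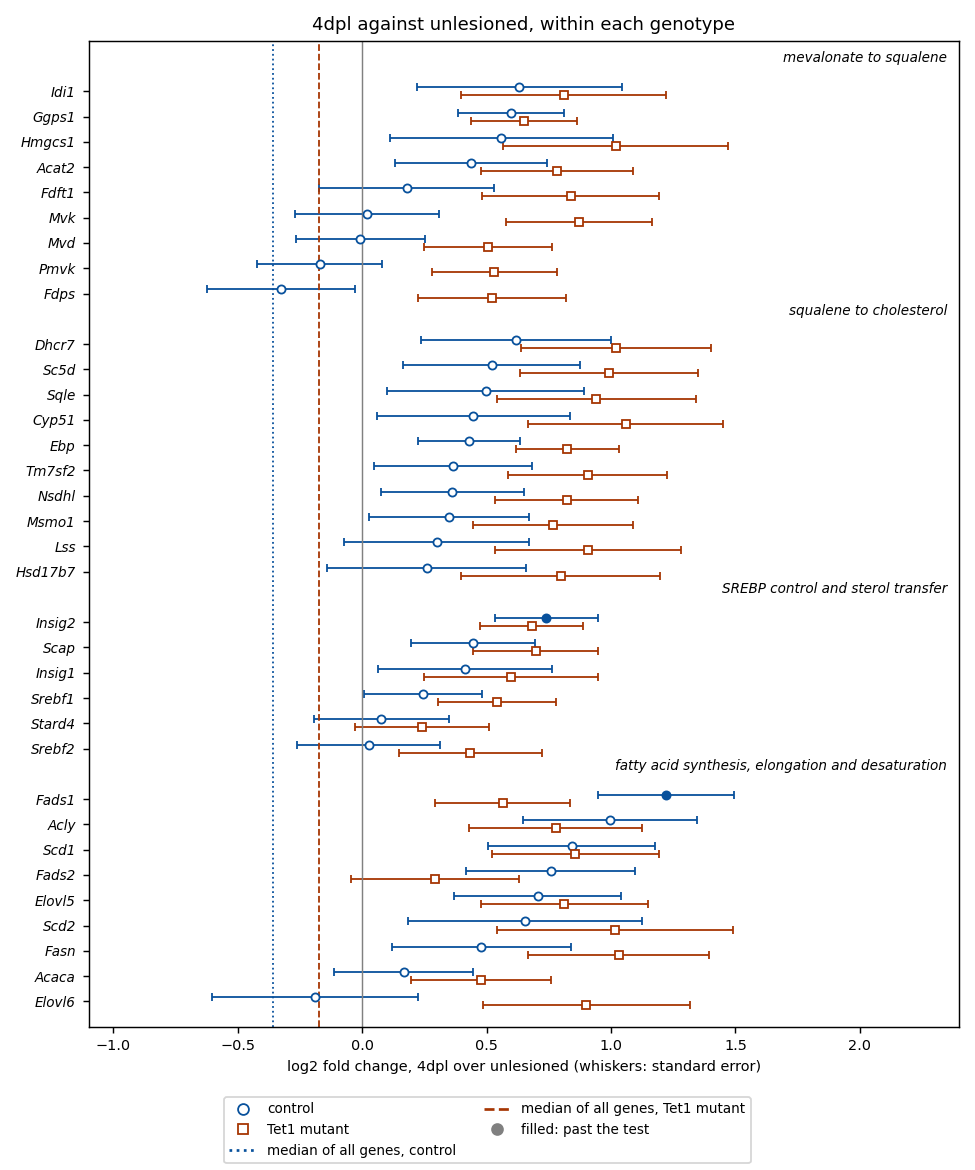
Log2 fold change of each of the 34 genes, 4dpl over unlesioned, on the x axis, in control (circles) and Tet1 mutant (squares) with standard errors as whiskers; genes are grouped by role, filled points passed the test, and dotted and dashed lines mark the median of all genes. Fads1 and Insig2 in the control are the filled points, and the Tet1 mutant values all lie above 0 with TMM, as plotted, while 4 of them (Acaca, Fads2, Srebf2 and Stard4) lie below it with library totals alone.

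Of the 9 mevalonate genes, which supply isoprene units and squalene, 0 were called in the control (1 at an unadjusted p under 0.05), 0 in the Tet1 mutant (5 at that p) and 1 over both genotypes. Of all genes, 13.9% in the control and 15.9% in the Tet1 mutant were higher at that p. The median of the 9 log2 fold changes was 0.18 for the control and 0.78 for the Tet1 mutant. The gene called was Ggps1, geranylgeranyl diphosphate synthase, which takes isoprene units away from sterols toward the lipid tails of prenylated proteins (ENSMUSG00000021302, chromosome 13 from 14050659 to 14063488 on GRCm38). Its CPM in replicates 1, 2 and 3 was 28.4, 21.8 and 22.1 in the control unlesioned libraries and 42.4, 32.6 and 34.7 at 4dpl. Tet1 mutant libraries had 30.0, 21.1 and 22.4 CPM unlesioned and 41.1, 39.6 and 34.8 CPM at 4dpl. The 4dpl libraries were above the unlesioned ones in both genotypes, without overlap, and replicate 3 was the lowest of the Tet1 mutant 4dpl libraries for this gene alone among the 34. The log2 fold change was 0.63 ± 0.15 over both genotypes (SE, edgeR adjusted p = 0.00816), 0.60 ± 0.21 in the control (edgeR adjusted p = 0.0757) and 0.65 ± 0.21 in the Tet1 mutant (edgeR adjusted p = 0.0746). Pmvk, Mvd, Mvk and Fdps, the kinases, decarboxylase and synthase in the middle of the route, had the lowest values of the 9 in the control, between -0.33 for Fdps and 0.02 for Mvk, and between 0.51 for Mvd and 0.87 for Mvk in the Tet1 mutant. Hmgcs1, Idi1, Acat2 and Fdft1 lay between 0.18 for Fdft1 and 0.63 for Idi1 in the control, and between 0.78 for Acat2 and 1.02 for Hmgcs1 in the Tet1 mutant.

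All 10 genes that turn squalene into cholesterol had a fold change above 0 in both genotypes, with a median of 0.40 in the control and 0.91 in the Tet1 mutant. None was called within a genotype, 0 in the control and 9 in the Tet1 mutant were at an unadjusted p under 0.05, and Ebp, Sc5d and Dhcr7, which act in the last steps, rose over both genotypes. Ebp encodes the sterol isomerase that moves the double bond of the sterol ring (ENSMUSG00000031168, chromosome X from 8185329 to 8193512). Its CPM was 63.3, 58.3 and 59.2 in the control unlesioned libraries and 79.4, 92.2 and 71.9 at 4dpl. Its CPM in the Tet1 mutant was 53.4, 38.1 and 50.0 unlesioned and 73.2, 80.3 and 97 at 4dpl. Neither genotype's groups overlapped, and the Tet1 mutant unlesioned libraries were the lowest of all. The log2 fold change was 0.63 ± 0.15 over both genotypes (SE, edgeR adjusted p = 0.00741), 0.43 ± 0.21 in the control (edgeR adjusted p = 0.158) and 0.82 ± 0.21 in the Tet1 mutant (edgeR adjusted p = 0.0544). The Tet1 mutant value passed with DESeq2, with edgeR's newer option and with voom.

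Sc5d, lathosterol oxidase (ENSMUSG00000032018, chromosome 9 from 42251595 to 42264256), had 142, 56.4 and 69.6 CPM in the control unlesioned libraries and 146, 113 and 125 CPM at 4dpl. The Tet1 mutant values were 131, 68.7 and 90.5 CPM unlesioned and 143, 167 and 268 CPM at 4dpl. Control unlesioned replicate 1 reached into the control 4dpl range, while the Tet1 mutant groups did not overlap. Its log2 fold change over both genotypes was 0.76 ± 0.25 (SE, edgeR adjusted p = 0.0297). Dhcr7, the reductase that makes cholesterol from its last precursor (ENSMUSG00000058454, chromosome 7 from 143823145 to 143848410), had 51.8, 31.4 and 23.6 CPM in the control unlesioned libraries and 61, 52.4 and 50.6 CPM at 4dpl. Unlesioned Tet1 mutant libraries had 56.1, 26.5 and 41.8 CPM and those at 4dpl 58.3, 55.7 and 138 CPM. Replicate 1 of each unlesioned group overlapped the 4dpl libraries, and 1 library, Tet1 mutant 4dpl replicate 3, held more than any other. Its log2 fold change over both genotypes was 0.82 ± 0.27 (SE, edgeR adjusted p = 0.0281). Both calls were lost when any of 8 libraries was left out, all but replicate 1 of each unlesioned group and replicates 1 and 2 of the Tet1 mutant at 4dpl, with an edgeR adjusted p of 0.0385 to 0.0715 for Sc5d and 0.0395 to 0.0753 for Dhcr7. Where that value is under 0.05, the unadjusted p was 0.01 or more. Of the other 7, Sqle (squalene epoxidase), Lss (lanosterol synthase), Cyp51 (lanosterol demethylase), Tm7sf2, Msmo1, Nsdhl and Hsd17b7 lay between 0.26 for Hsd17b7 and 0.50 for Sqle in the control. Among Tet1 mutants they lay between 0.77 for Msmo1 and 1.06 for Cyp51.

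Among the 6 regulators, Insig2 and Scap rose over both genotypes and Insig2 also in the control, while the transcription factor genes Srebf1 and Srebf2 did not pass the test. Over the 6 genes the log2 fold changes had a median of 0.33 in the control and of 0.57 in the Tet1 mutant. Insig2 encodes a membrane protein that retains the SCAP and SREBP complex (ENSMUSG00000003721, chromosome 1 from 121304353 to 121332589). Its CPM was 28.3, 20.5 and 24.1 in the control unlesioned libraries and 41.7, 40.8 and 39.2 at 4dpl. Tet1 mutant libraries had 29.4, 22.5 and 20.7 CPM unlesioned and 39.9, 34.3 and 42.3 CPM at 4dpl. The lowest 4dpl library of either genotype was above the highest unlesioned library of both. The log2 fold change was 0.74 ± 0.21 in the control (SE, edgeR adjusted p = 0.0434), 0.68 ± 0.21 in the Tet1 mutant (edgeR adjusted p = 0.0663) and 0.71 ± 0.15 over both (edgeR adjusted p = 0.00492), the smallest p of the 34. The call in the control was lost without any of 8 libraries, all but control unlesioned replicate 1, Tet1 mutant unlesioned replicates 1 and 2 and Tet1 mutant 4dpl replicate 3 (edgeR adjusted p 0.0536 to 0.136), while that over both genotypes held without any one of the 12. The Tet1 mutant value of Insig2 passed with DESeq2, edgeR's newer option and voom. Its close relative Insig1, a well-known SREBP target, had 0.41 ± 0.35 in the control (edgeR adjusted p = 0.404) and 0.60 ± 0.35 in the Tet1 mutant (edgeR adjusted p = 0.229). The difference between Insig1 and Insig2 was not tested.

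Scap, the escort of SREBP (ENSMUSG00000032485, chromosome 9 from 110333288 to 110384950), had 56.7, 47.4 and 45.2 CPM in the control unlesioned libraries and 69.5, 73.4 and 60.8 CPM at 4dpl. Its CPM in the Tet1 mutant was 60.7, 36 and 43.6 unlesioned and 66.7, 60.3 and 100.4 at 4dpl. The control groups did not overlap, and in the Tet1 mutant unlesioned replicate 1 lay just above 4dpl replicate 2. Its log2 fold change over both genotypes was 0.57 ± 0.18 (SE, edgeR adjusted p = 0.0217), a call lost without any of the same 8 libraries as for Dhcr7 (edgeR adjusted p 0.0339 to 0.0543). Srebf1, which drives fatty acid genes, had 0.39 ± 0.17 (edgeR adjusted p = 0.0717), Srebf2, which drives sterol genes, 0.23 ± 0.20 (edgeR adjusted p = 0.367), and Stard4, a sterol carrier, 0.16 ± 0.19 (edgeR adjusted p = 0.514). The activity of SREBP proteins is set by cleavage, which RNA levels do not measure.

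The 9 fatty acid genes had the largest median of the 4 roles in the control, 0.70, and 0.81 in the Tet1 mutant. In the control, 7 of the 9 had every 4dpl library above every unlesioned one, all but Elovl6 and Fads2, where 16.5% of all genes did. In the Tet1 mutant 2 of the 9 did, Acly and Scd1, where 18.8% of all genes did. Fads1 was called in the control, and 4 were at an unadjusted p under 0.05 there, where 13.9% of all genes were higher. Acly, Scd1, Elovl5 and Fads1 rose over both genotypes. Fads1, which adds a double bond to long polyunsaturated fatty acids (ENSMUSG00000010663, chromosome 19 from 10182888 to 10196870), had 48.6, 24.9 and 41.7 CPM in the control unlesioned libraries and 96.3, 77.8 and 94.6 CPM at 4dpl. The Tet1 mutant values were 66.7, 48.4 and 42.8 CPM unlesioned and 86.5, 60.1 and 87 CPM at 4dpl. The control groups were far apart, whereas Tet1 mutant unlesioned replicate 1 was above 4dpl replicate 2. The log2 fold change was 1.22 ± 0.27 in the control (SE, edgeR adjusted p = 0.0290), 0.56 ± 0.27 in the Tet1 mutant (edgeR adjusted p = 0.157) and 0.89 ± 0.19 over both (edgeR adjusted p = 0.00556). The call in the control was lost without control unlesioned replicate 2 or 3 or control 4dpl replicate 1 or 2 (edgeR adjusted p 0.0757 to 0.102). The change in the Tet1 mutant minus that in the control was -0.66 on the log2 scale, with a 95% interval of -1.48 to 0.16, and did not pass the test (edgeR adjusted p = 1.0).

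Acly, ATP citrate lyase (ENSMUSG00000020917, chromosome 11 from 100476353 to 100528000), had 263, 89.9 and 118 CPM in the control unlesioned libraries and 303, 315 and 322 CPM at 4dpl. Unlesioned Tet1 mutant libraries had 263, 154 and 159.9 CPM and those at 4dpl 313, 327 and 348 CPM. All 6 libraries at 4dpl lay above all 6 unlesioned ones, and replicate 1 was the highest unlesioned library in both genotypes. The log2 fold change was 0.89 ± 0.25 over both genotypes (SE, edgeR adjusted p = 0.0144), 1.0 ± 0.35 in the control (edgeR adjusted p = 0.0733) and 0.78 ± 0.35 in the Tet1 mutant (edgeR adjusted p = 0.136). The control value was 1.62 and passed without control unlesioned replicate 1, and it also passed with DESeq2, with voom and with no filter on low counts. Scd1, a stearoyl-CoA desaturase (ENSMUSG00000037071, chromosome 19 from 44394451 to 44407709), had 30.8, 30.6 and 28.8 CPM in the control unlesioned libraries and 41.7, 37.2 and 82.9 CPM at 4dpl. Tet1 mutant libraries had 31.8, 33.5 and 24.2 CPM unlesioned and 38.6, 40.4 and 83 CPM at 4dpl. The groups did not overlap, and replicate 3 at 4dpl was about as high in both genotypes and well above the other libraries. Its log2 fold change over both genotypes was 0.85 ± 0.24 (SE, edgeR adjusted p = 0.0146), a call lost without control 4dpl replicate 3 (edgeR adjusted p = 0.0421, with the unadjusted p above 0.01).

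Elovl5 (ENSMUSG00000032349, chromosome 9 from 77917364 to 77984519) had 163, 98.2 and 106 CPM in the control unlesioned libraries and 226, 181 and 192 CPM at 4dpl. Its CPM in the Tet1 mutant was 190.4, 87.2 and 125 unlesioned and 172, 189 and 347 at 4dpl. The control groups did not overlap, while in the Tet1 mutant unlesioned replicate 1 lay above 4dpl replicates 1 and 2. Its log2 fold change over both genotypes was 0.76 ± 0.24 (SE, edgeR adjusted p = 0.0233), lost without any of 7 libraries, those named for Dhcr7 except control 4dpl replicate 2 (edgeR adjusted p 0.0343 to 0.0590). Scd2, the most abundant of the 34 genes, had 1318, 1039.9 and 1090.4 CPM in the control unlesioned libraries and 2196, 1709 and 1520.5 CPM at 4dpl. In the Tet1 mutant it spread from 566 to 2258 CPM unlesioned and from 1735 to 4385 CPM at 4dpl, so unlesioned and lesioned libraries overlapped. Its value over both genotypes, 0.83 ± 0.33, did not pass the test (edgeR adjusted p = 0.0576). Fasn, fatty acid synthase, had 0.75 ± 0.26 (edgeR adjusted p = 0.0313) and missed the limit of 0.01 on the unadjusted p, at 0.0104. Acaca, Elovl6 and Fads2 had 0.32 ± 0.20, 0.35 ± 0.29 and 0.52 ± 0.24 over both genotypes.

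**Figure D4:**
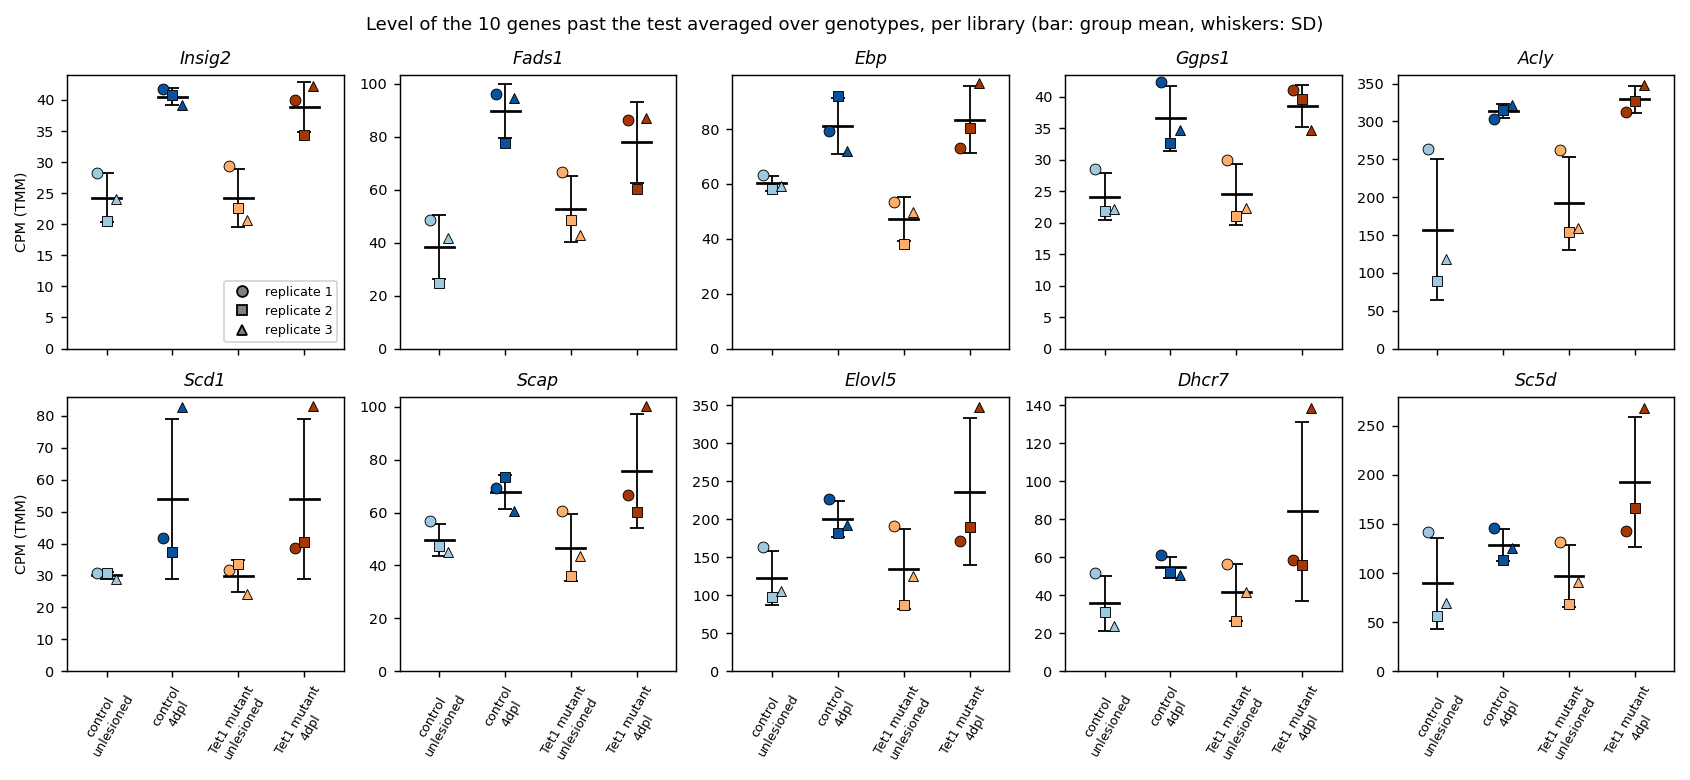
CPM on the y axis, from 0, of the 10 genes called over both genotypes, for the 4 groups on the x axis; points are libraries shaped by replicate, bars group means and whiskers SDs. Insig2, Ggps1, Ebp, Acly and Scd1 show no overlap between unlesioned and 4dpl libraries of either genotype. Tet1 mutant 4dpl replicate 3 is the highest point of every gene drawn except Ggps1 and Fads1.

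Other genes of the same pathways were drawn from lists of sterol genes (19 tested) and fatty acid genes (30 tested). Over both genotypes, 9 of the 19 and 8 of the 30 rose and 0 fell, where 14.2% of all genes rose. In the control 2 and 3 rose, where 5.12% of all genes did. In the Tet1 mutant 0 did (9 and 10 at an unadjusted p under 0.05, beside 15.9% of all genes). Among the sterol genes with the smallest p over both genotypes were Acat1, the mitochondrial acetoacetyl-CoA thiolase, and Rdh11, a retinol dehydrogenase. Acat1 had a log2 fold change of 0.69 ± 0.14 (SE, edgeR adjusted p = 0.00509) and Rdh11 0.79 ± 0.18 (edgeR adjusted p = 0.00711). The fatty acid genes with the smallest p were Hsd17b12 and Hacd3, which carry out the reduction and dehydration steps of elongation, and Me1, malic enzyme, which supplies NADPH. Hsd17b12 had 1.04 ± 0.20 (edgeR adjusted p = 0.00393), with 91.4, 54.3 and 75.6 CPM in the control unlesioned and 174, 149 and 141 CPM in the control 4dpl libraries. Hacd3 had 1.03 ± 0.23 (edgeR adjusted p = 0.00605) and Me1 0.99 ± 0.23 (edgeR adjusted p = 0.00741). Most markers of oligodendroglia, microglia and macrophages also had fold changes above 0 at 4dpl. In the control the 12 mature oligodendrocyte markers had a median log2 fold change of 0.23, 1 was called and 2 were higher at an unadjusted p under 0.05. The 8 oligodendrocyte progenitor markers were at 1.40 there with 4 called, the 10 microglia markers at 1.26 with 2 called, and 8 markers of infiltrating macrophages at 1.04 with 3 called. Among Tet1 mutants 0 of these markers were called, and the median was 0.98 for the mature oligodendrocyte markers (12 of 12 above 0 and 10 at an unadjusted p under 0.05), beside 0.80 for the 34 lipid genes. The progenitor markers had a median of 0.19 there, the microglia markers 0.85 and the macrophage markers 0.70. Summed, the mature oligodendrocyte markers stood at 21716, 17274 and 18839.8 CPM in the control unlesioned and 29989, 24588 and 35529.6 CPM in the control 4dpl libraries, and at 29852, 14989.6 and 20962 and 26909.7, 30297 and 72074 CPM in those of the Tet1 mutant. Summed astrocyte markers stood at 216 to 247 CPM in the control unlesioned and 336 to 634 CPM in the control 4dpl libraries. Summed pericyte and fibroblast markers stood at 35.1 to 52.8 and 102 to 215 CPM there. In the Tet1 mutant both sums overlapped between unlesioned and 4dpl libraries. Those of neuron and endothelial cell markers overlapped in both genotypes. The part of these cell types in the values of the lipid genes was not tested.

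Between the genotypes no lipid synthesis gene passed the test, either unlesioned or at 4dpl, and none of the 31109 genes did (0% and 0% called, edgeR). DESeq2 and voom also called 0 of the 34 in either contrast. At an unadjusted p under 0.05, DESeq2 had 1 of the 34 higher unlesioned (2.86% of all genes) and 4 at 4dpl (5.51%). For voom these were 8 (6.96% of all genes) and 6 (5.52%). Unlesioned, the median log2 difference of the 34, Tet1 mutant over control, was 0.03, beside 0.02 over all genes. It was 0.36 without control replicate 1 and -0.17 without Tet1 mutant replicate 1, so its sign depended on the libraries. In edgeR 1 gene was higher at an unadjusted p under 0.05, where 1.72% of all genes were. That gene was Fads2, a desaturase at the entry to long polyunsaturated fatty acids, with 9.97, 4.82 and 7.23 CPM in the control and 13.8, 15.7 and 8.36 CPM in the Tet1 mutant. Control replicate 1 lay within the Tet1 mutant range, and the log2 difference was 0.78 ± 0.34 (SE, edgeR adjusted p = 0.927). Pmvk, phosphomevalonate kinase, and Ebp were lower in every Tet1 mutant unlesioned library than in every control one, as were 6.28% of all genes. Pmvk was at 33.9, 39.2 and 29.9 CPM in the control and 25.1, 24.4 and 25.2 CPM in the Tet1 mutant, a log2 difference of -0.46 ± 0.25 (SE, edgeR adjusted p = 1.0). That of Ebp was -0.35 ± 0.21 (SE, edgeR adjusted p = 1.0). Leaving out 1 library gave -0.46 to -0.22 for Ebp, -0.55 to -0.36 for Pmvk and 0.55 to 1.07 for Fads2.

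At 4dpl most values lay above 0, that is, higher in the Tet1 mutant, without passing the test. The median log2 difference was 0.44 over the 34 genes and 0.05 over all genes, 32 of the 34 were above 0, and the medians by role were 0.65 for the mevalonate genes, 0.64 for the sterol genes, 0.26 for the regulators and 0.24 for the fatty acid genes. At an unadjusted p under 0.05, 3 were higher, Fdps, Mvk and Msmo1, where 5.15% of all genes were. In 7 of the 34, Fdps, Hmgcs1, Idi1, Lss, Msmo1, Mvk and Stard4, every Tet1 mutant library was above every control one, where 7.34% of all genes were. Without Tet1 mutant 4dpl replicate 3 the median over the 34 was 0.12, 22 were above 0 and 0 were at an unadjusted p under 0.05. That library is the one with the high oligodendrocyte markers. Over the group, the mature oligodendrocyte markers had a median log2 difference of 0.71 with 12 of 12 above 0, the infiltrating macrophage markers of -0.81 and the pericyte and fibroblast markers of -0.65, 3 of 8 lower at an unadjusted p under 0.05. The part of these cells in the difference was not tested. The 3 genes at that p were also 0 without control 4dpl replicate 2 or 3, 2 without control 4dpl replicate 1 or Tet1 mutant unlesioned replicate 3, and 8 without Tet1 mutant 4dpl replicate 1 or control unlesioned replicate 1.

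Fdps was at 6.01, 5.53 and 4.72 CPM in the control 4dpl and 7.0, 7.68 and 12.6 CPM in the Tet1 mutant 4dpl libraries, with a log2 difference of 0.75 ± 0.30 (SE, edgeR adjusted p = 0.577). Mvk, mevalonate kinase, was at 22, 21.6 and 21.5 CPM in the control and 22.7, 29.3 and 55.4 CPM in the Tet1 mutant, with a log2 difference of 0.72 ± 0.29 (SE, edgeR adjusted p = 0.590). Msmo1, a methylsterol oxidase, was at 197, 153 and 165 CPM in the control and 199, 270.3 and 379 CPM in the Tet1 mutant, with a log2 difference of 0.72 ± 0.32 (SE, edgeR adjusted p = 0.688). In all 3 genes replicate 1 was the lowest Tet1 mutant library and lay just above the control range, and replicate 3 was the highest. Without replicate 3 the log2 difference was 0.43 for Fdps, 0.26 for Mvk and 0.45 for Msmo1. Fads1, the gene with the largest change in the control, had -0.20 ± 0.27 between genotypes at 4dpl (SE, edgeR adjusted p = 0.966), with a 95% interval of -0.78 to 0.38.

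**Figure D5:**
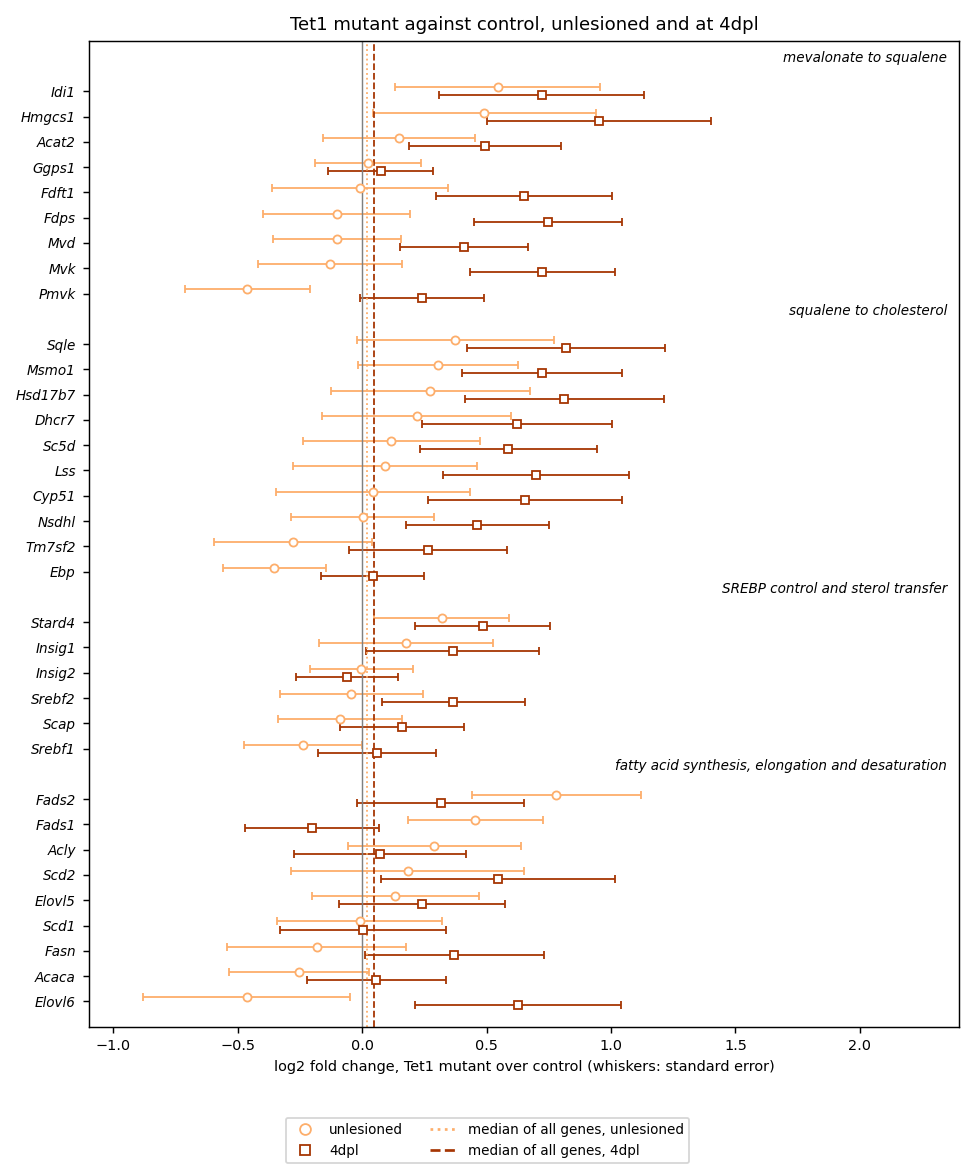
Log2 fold change of each of the 34 genes, Tet1 mutant over control, on the x axis, unlesioned (circles) and at 4dpl (squares) with standard errors as whiskers, genes grouped by role and lines at the median of all genes. Unlesioned values scatter around 0, values at 4dpl mostly lie above it, and no gene passed the test.

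Whether the change after lesion differed between the genotypes was tested as an interaction, and none of the 34 genes passed. Of all genes 0% were called, 3.81% were at an unadjusted p under 0.05, and 0 of the 34 were (edgeR). DESeq2 also called 0 and had 0 at that p, and voom called 0 and had 1, lower in the Tet1 mutant, where 4.3% of all genes were at that p with DESeq2 and 6.7% with voom. The median difference of the log2 fold changes, Tet1 mutant minus control, was 0.41 over the 34 and 0.07 over all genes, and over the 34 it was 0.06 without control unlesioned replicate 1 and 0.10 without Tet1 mutant 4dpl replicate 3. The mature oligodendrocyte markers had a median difference of 0.75 in that contrast, 10 of 12 above 0, the progenitor markers of -0.96, 2 of 8 lower at an unadjusted p under 0.05, and the pericyte and fibroblast markers of -1.46, 4 of 8 lower at that p. Their part in the values of the lipid genes was not tested. The smallest p-values were those of Mvk, at 0.85 ± 0.41 (SE), Fdps, at 0.85 ± 0.42 (SE), and Pmvk, at 0.70 ± 0.35 (SE), each with an edgeR adjusted p of 1.0. Their 95% intervals, -0.03 to 1.73 for Mvk, -0.05 to 1.75 for Fdps and -0.06 to 1.46 for Pmvk, hold both no difference and differences larger than any single lesion change in the control. Without Tet1 mutant 4dpl replicate 3 the differences were 0.39 for Mvk, 0.54 for Fdps and 0.37 for Pmvk.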

How the data were processed

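Reads were aligned and counted per gene by the authors, and the deposited values are raw counts of reads per gene for each of the 12 libraries. The study's methods name BWA, featureCounts and Ensembl annotation of GRCm38, whereas the submitters' processing notes name STAR, mm10 and DESeq2 1.2.5. Counting by strand is not given in the sources used here, so reads of overlapping genes may be shared. The 37 mitochondrial genes were at 0 in every library.

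Genes with low counts were removed with edgeR's filterByExpr, leaving 31109 of 54838. A single model with the 4 groups was fitted by edgeR's quasi-likelihood test (edgeR 4.0.16, R 4.3.3) with TMM normalization. Contrasts were lesion within each genotype and averaged over both, genotype within each state, and the interaction. A gene was called at p under 0.01 and a Benjamini-Hochberg adjusted p under 0.05 over all genes tested. Standard errors were derived from the F statistic. Log2 CPM used a prior count of 2. Lengths are the union of a gene's exons. Promoter sequences came from RefSeq (GRCm38.p6). The 7 genes without a window were Fdps, Fdft1, Sqle, Stard4, Scd1, Scd2 and Fads1.

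The 34 genes, the lists of other pathway genes and the markers were chosen with earlier results of these data known. Genes given with full statistics were those called in any contrast or, where fewer than 3 were called, the 3 with the smallest p in it, and the 3 with the smallest p over both genotypes in each list of other pathway genes. Of these, 1 of the other pathway genes is not reported here. Scd2 was added after its level was seen. Alternatives were DESeq2 1.42.0, voom with sample weights (limma 3.58.1), other scalings, filters and thresholds, a replicate block, the compared groups alone, and leaving out each library in turn. On simulated counts for 29196 genes with 200 given a log2 change of 3 between the control groups, edgeR recovered 96% and called 12 others. The largest lesion change of the 34 genes was 1.22, for Fads1 in the control. The simulation does not show how often changes of that size or smaller are recovered.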

Additional observations from a re-analysis of the deposited data

How the results depend on the processing

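In the control, where 2 of the 34 genes were called higher at 4dpl, the number was 4 at an adjusted p under 0.10, 12 with voom and sample weights, and 1 each with library totals alone, with genes of at least 10 counts in every library, and with the compared groups alone. Leaving out 1 library gave 0 to 9. In the Tet1 mutant, where 0 were called, 11 passed at an adjusted p under 0.10, 2 with DESeq2, 2 with edgeR's newer option and 8 with voom, and leaving out 1 library gave 0 to 8. Over both genotypes, where 10 were called, the number was 24 at an adjusted p under 0.10, 23 with voom, 20 without a filter on low counts, 6 with RLE size factors, 2 with genes of at least 10 counts in every library and 0 with library totals alone, and leaving out 1 library gave 5 to 22. These counts stand here without the share of all genes called in the same fit. They do not show whether the 34 genes moved apart from all genes. The cause of the shifts was not tested, beyond the loss of samples or genes that some of these settings bring. Counts of genes lower at 4dpl and of genes called between the genotypes or in the interaction were 0 under every alternative run. The mean log2 CPM of the 34 genes in the control 4dpl group was 5.65 with library totals in place of 5.84. The means of the other 3 groups and under the other scalings moved by less than 1 SD. The separation of the Tet1 mutant groups was still lost with RLE size factors and with library totals. With library totals their means were 5.74 unlesioned and 5.99 at 4dpl, in place of 5.47 and 6.20.

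The 31 log2 fold changes followed through every alternative, those of the genes and contrasts named by rule, kept their sign. Among all 34 genes, library totals alone turned the sign of 6 in the control (Acaca, Fdft1, Mvk, Srebf1, Srebf2 and Stard4), of 4 in the Tet1 mutant (Acaca, Fads2, Srebf2 and Stard4), of 7 over both genotypes, of 8 between the genotypes unlesioned, of 1 at 4dpl and of 6 in the interaction. Over both genotypes the calls of Insig2 and Fads1 were lost in 1 alternative (library totals), those of Acly, Ebp and Ggps1 in 2, of Scd1 in 3, of Elovl5 in 10, of Sc5d and Scap in 11 and of Dhcr7 in 12. In the control, the call of Insig2 was lost in 11 alternatives and that of Fads1 in 4. With edgeR's replicate block by label number, 4 genes were called in the control, 0 in the Tet1 mutant and 15 over both genotypes. Deviations of libraries with the same label number, unlesioned and 4dpl, correlated across genes at 0.19, 0.05 and 0.19 in the control. In the Tet1 mutant the values were -0.03, 0.07 and -0.07. The main fit did not pair libraries by label number. The study's own sample list numbers some libraries differently from the labels. Over all 9 pairings of an unlesioned with a 4dpl library the correlations lay between -0.18 and 0.19 in the control. They lay between -0.14 and 0.16 in the Tet1 mutant. In the control the same-number pairings had the highest values, and the next was 0.04. In the Tet1 mutant the highest was that of unlesioned replicate 1 with 4dpl replicate 3. These values do not settle whether libraries are paired.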
